A study of Mus musculus with 12 samples.

Results

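The wild-type (WT) group 2 innate lymphoid cells (ILC2s) of 20 weeks after marrow transplant were compared with those of 8 weeks, as 3 libraries against 3, which are 6 of the 12 libraries of the series. The members were chosen by their labels alone. Per the labels, the mice of every group were CD45.1 congenic hosts that had received 950 cGy and then equal parts of WT marrow, marked by CD90.1, and CD45.2 Rag1-/- marrow, all on a C57BL6 background. Each host was therefore a mixed chimera, and the WT ILC2s had developed beside cells of Rag1-/- donors. In both groups IL-33 was injected daily for 7 days before the skin-draining lymph nodes were taken, 30 ng into each cheek and 240 ng into the peritoneum, and ILC2s were sorted. The other 6 libraries, 3 per time, were made from the Rag1-/- side of the same kind of chimera and serve as a comparison.

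The labels do not give the age or sex of donors and hosts, how many host cells remained after irradiation, or whether a library holds 1 animal or a pool. Nor do they say that the replicates of a group were separate animals, and p-values then measure only how these samples vary, which may be technical. Without dates of harvest or sequencing, the age of the chimera and a possible batch cannot be told apart. The series text gives another length for the later time, and the sample labels, with 20 weeks, were followed.

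ILC2s are tissue and lymph node lymphocytes without a rearranged antigen receptor. They are activated by alarmins such as IL-33, which binds the receptor chain encoded by Il1rl1 and signals through MyD88 to NF-kB and MAP kinases, and they answer with the type 2 cytokines IL-5 and IL-13. Stimulated lymphocytes also switch on early response genes, which need no new protein synthesis: transcription factors of the Fos, Egr and Nr4a families, and feedback inhibitors such as the dual-specificity phosphatase Dusp1 and the deubiquitinase A20, encoded by Tnfaip3.

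The WT libraries held 13.2 to 29.1 M estimated reads at 20 weeks and 11.4 to 24 M at 8 weeks. WT replicate 2 of 8 weeks stood apart on the first component (50.4% of variance) of the 6 WT libraries. Rag1, which the label says the other donors lack, had 0 reads in all 6 WT libraries and up to 0.979 CPM (read counts scaled to library size with TMM factors) in the other 6. The label alone would not give that direction. Which part of Rag1 these reads match was not tested, so they do not decide the genotype, and these libraries are called knockout-labelled. The 4 Y-linked genes read as a check summed to 21.0 to 27.5 CPM in WT libraries of 8 weeks and to 334 to 373 CPM at 20 weeks, so time and the sex of the WT donors cannot be told apart, and only autosomal genes are reported. Markers at 0 in all 6 WT libraries were 4 of 12 for neutrophils (S100a8, S100a9, Ly6g, Elane) and 3 of 15 for macrophages and monocytes (Cd14, Fcgr1, Vsig4). They were 1 of 13 for dendritic cells (Clec9a), 3 of 12 for epithelial cells (Krt14, Ivl, Lor) and 3 of 9 for eosinophils (Prg2, Epx, Ear1). Other members of these lists had reads, such as H2-Aa of dendritic cells (1340 CPM on average), Ccr3 of eosinophils (12.6) and Csf1r of macrophages (4.16). The lists therefore do not show that these cells were absent. Summed T cell markers lay at 1800 to 2160 CPM at 8 weeks and 1800 to 2050 CPM at 20 weeks, and B cell markers at 179 to 389 and 224 to 342 CPM. Summed epithelial markers lay at 53.5 to 98.4 CPM at 8 weeks and 33.6 to 34.9 CPM at 20 weeks without overlap, with the keratin gene Krt80 at 47.3 ± 23.3 against 14.2 ± 2.6 CPM (adjusted p = 0.0575). Summed macrophage and monocyte markers lay at 413 to 656 and 633 to 808 CPM, most of it Ccr2 (490 ± 138 against 698 ± 86.7 CPM). Summed ILC2 identity genes lay higher at 20 weeks without overlap, at 9900 to 10500 against 7360 to 9110 CPM. Much of that rise was in Id2 (2290 ± 438 against 3420 ± 556 CPM) and Ets1 (182 ± 3.61 against 1010 ± 112 CPM). Of 24 members tested, 14 had a fitted value above 0 and 10 below, with a median log2 fold change of 0.05. The part of these shifts in the results was not tested.

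More genes were called lower than higher at 20 weeks, and early response genes were among the lower ones. Of 13831 autosomal genes tested, 63 (0.455%) passed a threshold of 0.05 on edgeR's p after Benjamini-Hochberg adjustment and are called here, 18 (0.13%) higher and 45 (0.325%) lower at 20 weeks. Of these, 57 were protein coding and 55 had a log2 fold change of at least 1 in size. The lower genes were led by early response genes (Fos, Fosb, Egr1, Nr4a1, Nr4a2, Dusp1), inhibitors of signalling (Tnfaip3, Rgs2, Cdkn1a) and genes that were high in WT cells of 8 weeks alone (Fmo1, Adamts13, Capn11). The higher genes included the transcription factor genes Ets1, Hlf and Nfib, the ATP receptor gene P2rx7 and a group on chromosome 11 with Nefh and Pes1. The libraries of the 2 times did not overlap for any of the 63, while 19.2% of all genes tested had no overlap. The calls were made from these same libraries and largely fix that count, so it describes the genes and tests nothing. The median log2 fold change of all genes was 0.03.

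**Figure D1:**
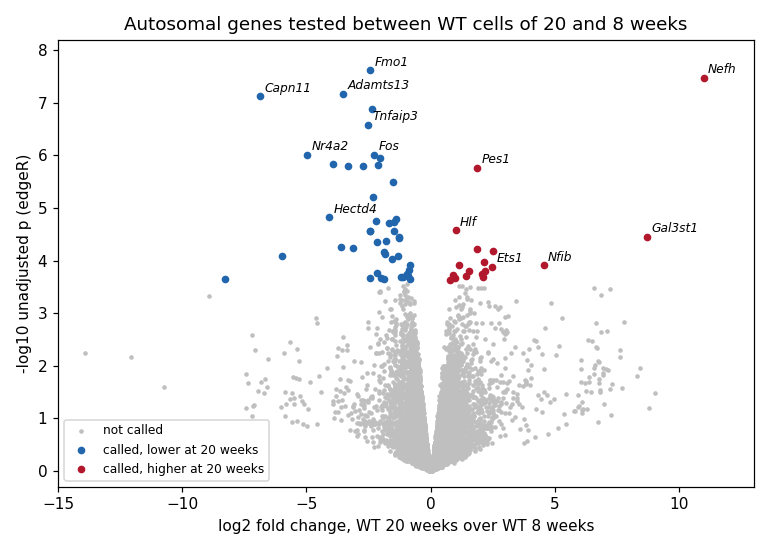
Each point is 1 of 13831 autosomal genes, with the log2 fold change of WT 20 weeks over WT 8 weeks on the x axis and -log10 of the unadjusted edgeR p on the y axis. The 45 genes called lower (blue) outnumber the 18 called higher (red), and Fmo1, Nefh, Adamts13 and Capn11 have the smallest p.

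The number of calls moved with single libraries. Without WT replicate 2 of 8 weeks, the library apart on the first component, 37 of the 63 genes were still called and 26 were not. The number of all calls was 278 without WT replicate 3 and 29 without WT replicate 1 of 8 weeks, 27, 20 and 25 without WT replicates 1, 2 and 3 of 20 weeks, 139 without knockout-labelled replicate 3 of 8 weeks, and 40, 39 and 40 without the knockout-labelled replicates 1, 2 and 3 of 20 weeks. The file headers record 8 or 24 threads for the quantification. The 8-thread libraries were also fitted alone, 2 per WT group with knockout-labelled replicates 1 and 3 of 8 weeks, which share the estimate of spread. There edgeR called 0 genes between the WT groups, with 1057 at an unadjusted p under 0.05. The 24-thread WT libraries are 1 per time, too few for a value of their own.

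The genes fell into 2 patterns when the knockout-labelled libraries were set beside them. For 32 of the 63, all 6 libraries of 8 weeks were separated from all 6 of 20 weeks (26 lower and 6 higher at 20 weeks), against 4.02% of all genes tested. For 34 of the 63, the 3 WT libraries of 8 weeks lay outside the range of the other 9 libraries (21 lower and 13 higher at 20 weeks), against 1.51% of all genes. Both held for 6 genes and neither for 3, Gm7984, Mx1 and Pkib. The calls in WT fix part of both counts, so they describe the genes and test nothing.

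The first pattern held for all 6 called early response genes, whose libraries of 8 weeks lay above those of 20 weeks in both genotypes. Of 26 tested genes of an early response and AP-1 list, 6 were called lower and 0 higher in WT cells (all genes 0.325% and 0.13%). Their median log2 fold change was -0.87 in WT and -0.60 in knockout-labelled cells (all genes 0.03 and 0). At an unadjusted p under 0.05, 12 were lower and 1 higher, against 7.42% and 5.8% of all genes. The fitted values of 20 members were below 0 and of 6 above. DESeq2 called 9 lower, the 6 WT libraries fitted alone 4, and single-library omissions 4 to 8.

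The promoters of 5 of these 6 called genes are shown because the genes moved together; RefSeq (GRCm38.p6) gave no window here for Egr1. Each line gives the 150 bases that end just before RefSeq's start of transcription, 5′ to 3′ on the gene's strand. Capitals mark TGACG on either strand (its reverse complement reads CGTCA), the core of the cyclic AMP response element bound by CREB and ATF factors, and in Dusp1 the full element TGACGTCA. The windows are chr12:85473740-85473889 (plus strand) for Fos, chr7:19310046-19310195 (minus) for Fosb, chr15:101266696-101266845 (plus) for Nr4a1, chr2:57124004-57124153 (minus) for Nr4a2 and chr17:26508473-26508622 (minus) for Dusp1.
Fos: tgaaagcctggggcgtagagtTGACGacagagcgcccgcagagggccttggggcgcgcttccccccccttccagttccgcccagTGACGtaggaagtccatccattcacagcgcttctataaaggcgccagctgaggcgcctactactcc
Fosb: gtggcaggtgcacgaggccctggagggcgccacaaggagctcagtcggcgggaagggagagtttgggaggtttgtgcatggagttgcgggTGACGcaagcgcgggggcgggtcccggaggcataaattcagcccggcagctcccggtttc
Nr4a1: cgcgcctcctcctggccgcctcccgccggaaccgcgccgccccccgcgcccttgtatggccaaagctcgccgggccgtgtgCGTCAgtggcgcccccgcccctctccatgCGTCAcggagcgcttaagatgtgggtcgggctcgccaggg
Nr4a2: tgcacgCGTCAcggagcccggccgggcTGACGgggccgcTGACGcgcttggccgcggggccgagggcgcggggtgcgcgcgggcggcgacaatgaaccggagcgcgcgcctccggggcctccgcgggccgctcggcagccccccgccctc
Dusp1: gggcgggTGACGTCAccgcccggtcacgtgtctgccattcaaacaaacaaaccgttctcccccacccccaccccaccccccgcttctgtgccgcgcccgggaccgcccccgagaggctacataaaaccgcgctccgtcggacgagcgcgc

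The core TGACG, on either strand and counted also inside TGACGTCA, was found in all 5 windows of 250 bases before to 50 after the start, in 8 of 18 windows of the list's members that were not called, and in 20.8% of all 32851 promoter windows. The full TGACGTCA was in 1 of 5, in 1 of 18 and in 1.79% of all windows. The AP-1 site TGANTCA was in 0 of 5, in 1 of 18 and in 7.81% of all windows, the CArG box in 0 of 5, 3 of 18 and 1.63%, and the NF-kB site in 3 of 5, 2 of 18 and 8.46%. The motifs were chosen after the values were seen, and a match describes letters in these windows and no bound site.

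Fos (ENSMUSG00000021250, chromosome 12, 85473890 to 85477273, GRCm38), the gene of an AP-1 transcription factor subunit, was at 937, 1230 and 982 CPM in WT cells at 8 weeks and at 227, 200 and 218 CPM in those of 20 weeks. The groups did not overlap, and the 20-week libraries lay close together (215 ± 14 against 1050 ± 159 CPM, SD, n = 3 each). The log2 fold change was -2.29 (SE 0.26, adjusted p = 0.00109), a 4.89-fold lower level. In knockout-labelled cells it fell by 1.98 on the log2 scale (adjusted p = 0.0144). That call, like all 9 made over time in knockout-labelled cells, was lost with thread number as a covariate. Per transcript length, Fos was one of the 5 most abundant called genes, at 594 ± 57.7 deposited TPM at 8 weeks and 141 ± 9.61 TPM at 20 weeks. Its relative Fosb was at 94.1, 78.6 and 63.3 CPM at 8 weeks and 15, 31.7 and 18 CPM at 20 weeks (log2 fold change -1.87, SE 0.32, adjusted p = 0.0216). Of the other AP-1 subunits, Jun (65.2 ± 22.6 against 27.5 ± 5.54 CPM, adjusted p = 0.068) and Junb (31.8 ± 7.71 against 14.7 ± 1.79 CPM, adjusted p = 0.206) did not pass. Batf, at 140 CPM at 8 weeks and 126 CPM at 20 weeks, and Jund had log2 fold changes of -0.15 and -0.04.

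The Nr4a orphan nuclear receptors, which are induced by receptor signalling and dampen lymphocyte activation, had the largest relative drops of the called members. Nr4a1 (chromosome 15, 101254269 to 101274795) was at 230, 208 and 133 CPM at 8 weeks and at 14.3, 26.3 and 16 CPM at 20 weeks. Every 8-week library was thus far above every 20-week library, and the log2 fold change was -3.33 (SE 0.39, adjusted p = 0.00123). Nr4a2 (chromosome 2, 57106830 to 57124003) was at 8.30, 4.74 and 7.05 CPM at 8 weeks and at 0.161, 0.309 and 0.144 CPM at 20 weeks (log2 fold change -4.96, SE 0.55, adjusted p = 0.00109). Its levels at 20 weeks rest on few reads, near the floor of 3 reads (0.143 CPM). Nr4a3 was not called, at 0.855 against 0.414 CPM. In knockout-labelled cells Nr4a1 and Nr4a2 fell by 2.80 and 3.87 on the log2 scale (adjusted p = 0.0157 for each).

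Egr1, a zinc finger factor induced by MAP kinase signalling, was at 50.4, 43.5 and 29.1 CPM at 8 weeks and at 8.24, 6.31 and 13.3 CPM at 20 weeks (log2 fold change -2.15, SE 0.41, adjusted p = 0.0429), and it was called in 12 of 26 alternative fits, which gave no other sign. Egr2 was at 4.51 and 3.26 CPM and was not called. Dusp1 (chromosome 17, 26505590 to 26562128), a phosphatase that switches off p38 and JNK, was at 104, 114 and 85.8 CPM at 8 weeks and at 25.2, 18.5 and 30.6 CPM at 20 weeks (log2 fold change -2.03, SE 0.23, adjusted p = 0.00117). Dusp1 overlaps Ergic1 and Gm8225 on the opposite strand, so their reads cannot be told apart. Its protein-coding transcript Dusp1-202 held 90.7% of the gene's WT reads at 8 weeks and 62.0% at 20 weeks, while the retained-intron transcript Dusp1-203 held 7.37% and 32.4%. The reads of Dusp1-203 were alike in number, 121 at 8 weeks and 182 at 20 weeks on average, so the drop was in the coding transcript. Dusp6, the phosphatase of ERK, was the member of the list with the smallest p among those above 0 (93.2 ± 10.9 against 145 ± 6.75 CPM, log2 fold change 0.64, adjusted p = 0.119). Myc was at 101 CPM at 8 weeks and 133 CPM at 20 weeks (log2 fold change 0.40, adjusted p = 0.431).

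**Figure D2:**
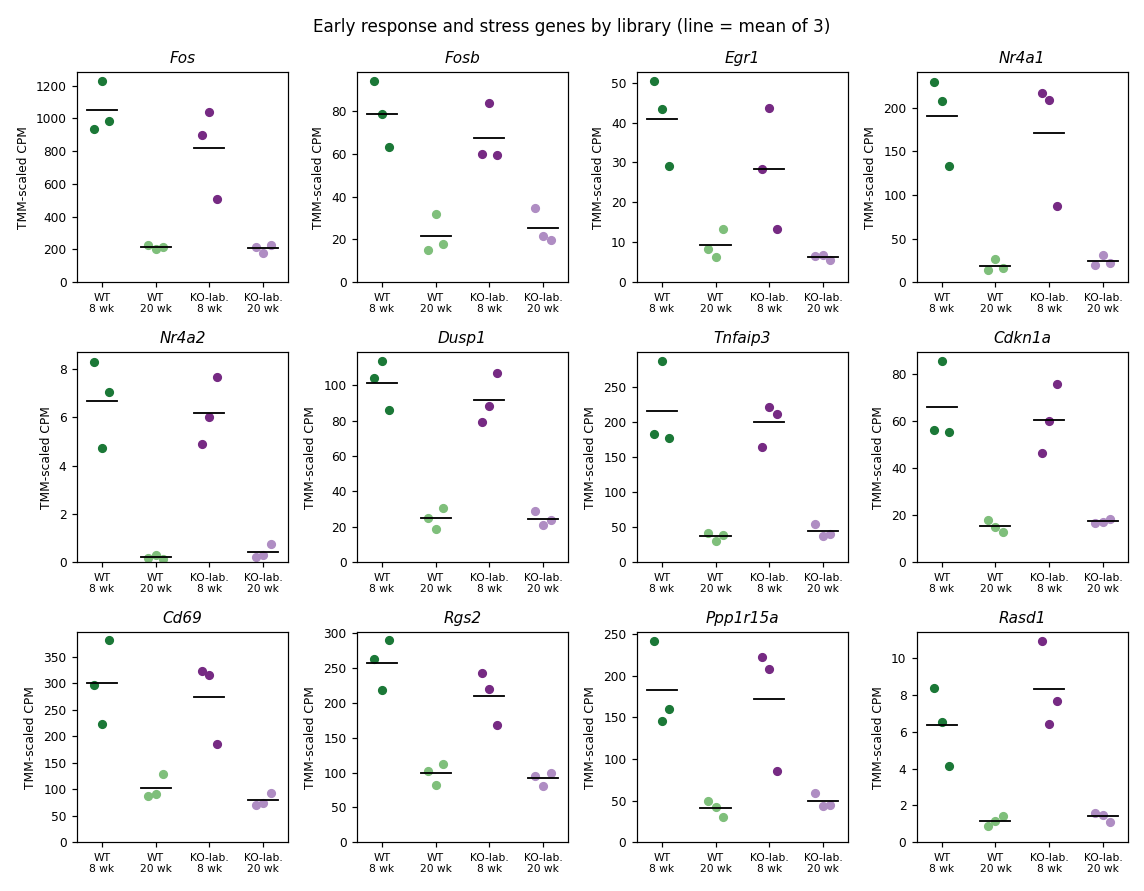
The y axis of each panel is TMM-scaled CPM on a linear scale from 0, each point is 1 library, and lines are means of 3 libraries of WT and knockout-labelled (KO-lab.) cells at each time. In all 12 genes the 8-week libraries of both genotypes lie above the 20-week libraries, as with Fos at 937 to 1230 CPM against 200 to 227 CPM in WT.

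Inhibitors and activation genes outside that list had the same pattern. Tnfaip3 (chromosome 10, 19000910 to 19015657), which encodes the NF-kB inhibitor A20, was at 183, 287 and 177 CPM at 8 weeks and at 42.4, 30.9 and 38.8 CPM at 20 weeks (log2 fold change -2.53, SE 0.25, adjusted p = 0.000346). Tnfaip3 was the one called gene of 25 tested in the NF-kB and IL-33 signalling list (all genes 0.325% lower), whose median log2 fold change was 0.04. On that list 5 genes were lower and 1 higher at an unadjusted edgeR p under 0.05, against 7.42% and 5.8% of all genes. Nfkbia, which encodes the inhibitor IkBα, was at 574 ± 85.8 against 287 ± 57.6 CPM (log2 fold change -1.00, adjusted p = 0.228), and the subunit gene Nfkb1 at 643 ± 70.4 against 725 ± 51.7 CPM. Cdkn1a, the cell cycle inhibitor p21, was at 56.3, 85.8 and 55.6 CPM at 8 weeks and at 18, 15.2 and 12.8 CPM at 20 weeks (log2 fold change -2.10, adjusted p = 0.00123), the one gene called among 26 p53 targets and cell cycle inhibitors. Among those 26, 5 were lower and 5 higher at an unadjusted edgeR p under 0.05. The p53 target Mdm2 on that list was at 49.2 ± 5.19 against 68.2 ± 3.93 CPM (adjusted p = 0.25).

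Cd69, an early activation antigen that retains lymphocytes in tissue, was at 296, 223 and 381 CPM at 8 weeks and at 87.7, 91.9 and 128 CPM at 20 weeks (log2 fold change -1.55, SE 0.27, adjusted p = 0.0264). Rgs2, a brake on G protein signalling, was at 263, 218 and 291 CPM and then 102, 82.4 and 112 CPM (log2 fold change -1.38, adjusted p = 0.00866). Ppp1r15a, which encodes the stress-induced phosphatase subunit GADD34, was at 242, 146 and 160 CPM and then 49.4, 42.4 and 30.0 CPM (log2 fold change -2.17, adjusted p = 0.0157). Its gene lies opposite Tulp2, and the strand of the counting is not given, so reads of both genes cannot be told apart. Ppp1r15a was the one gene called among 26 of heat shock and the unfolded protein response (all genes 0.325% lower), where Dnajb1 (99.6 ± 9.31 against 47.2 ± 13.8 CPM, adjusted p = 0.0617) and Hspa8 (2760 ± 738 against 1400 ± 113 CPM, adjusted p = 0.0743) missed the threshold. Of these 26, 7 were lower and 2 higher at an unadjusted edgeR p under 0.05, against 7.42% and 5.8% of all genes. Their median log2 fold change was -0.24.

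Further genes of this pattern lie outside the rule for named genes and were picked after their values were seen. They include Rasd1, a Ras-like GTPase gene (6.34 ± 2.15 against 1.17 ± 0.269 CPM), Gem, another small GTPase gene (40.8 ± 7.17 against 16.4 ± 3.68 CPM), and Bhlhe40, a repressor of the clock and of Il10 (759 ± 44.8 against 411 ± 11 CPM). Spon2, an extracellular matrix protein gene named by the rule, was at 116, 125 and 105 CPM at 8 weeks and 44.0, 46.1 and 30.7 CPM at 20 weeks (log2 fold change -1.51, adjusted p = 0.00218). Pycard, which encodes the inflammasome adaptor ASC, was at 448, 561 and 521 CPM and then 232, 295 and 267 CPM (log2 fold change -0.95, adjusted p = 0.0434), called in 8 of 26 alternative fits. Pycard and Dctpp1, a nucleotide pyrophosphatase gene on the same stretch of chromosome 7, were both lower in all 3 libraries of 20 weeks.

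Genes that were higher at 20 weeks in both genotypes were fewer. Hlf (chromosome 11, 90336536 to 90390895), a bZIP factor best known from blood stem cells, was at 32.4, 35.7 and 39.5 CPM at 8 weeks and at 70.7, 68.1 and 76.8 CPM at 20 weeks (log2 fold change 1.00, SE 0.15, adjusted p = 0.0119). Its spread within a time was small, and in knockout-labelled cells it was at 38.6 ± 2.45 and 69.7 ± 4.67 CPM (log2 fold change 0.85, adjusted p = 0.14). Pcsk1, a prohormone convertase gene picked after its values were seen, was at 40.6 ± 6.89 against 79.3 ± 3.49 CPM. Emp1, a membrane protein gene, was at 0.961, 0.988 and 0.919 CPM and then 2.75, 3.83 and 6.56 CPM (log2 fold change 2.18, adjusted p = 0.0396).

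Of 24 ILC2 identity genes tested, 1 was called higher (Ets1) and 1 lower (Cd69), with a median log2 fold change of 0.05. At an unadjusted p under 0.05, 6 were higher and 2 lower, against 5.8% and 7.42% of all genes. Gata3, the lineage's master regulator, was at 844, 1180 and 614 CPM at 8 weeks and at 893, 933 and 554 CPM at 20 weeks, so the groups overlapped (log2 fold change -0.15, SE 0.29, adjusted p = 0.872). Klrg1, a marker of mature ILC2s, was at 1390 ± 331 against 1410 ± 52.6 CPM (log2 fold change 0.02). The receptor genes Il1rl1 (217 ± 70 against 309 ± 1.83 CPM, log2 fold change 0.51, adjusted p = 0.338) and Il7r (556 ± 167 against 827 ± 92.5 CPM, 0.57, adjusted p = 0.336) and the factor gene Id2 (2290 ± 438 against 3420 ± 556 CPM, 0.58, adjusted p = 0.351) were higher on average and did not pass. Rora, a nuclear receptor that ILC2s need, was at 185 ± 44.9 against 244 ± 12.6 CPM, Il2ra at 299 ± 105 against 390 ± 51.2 CPM and Icos at 197 ± 85.2 against 259 ± 34 CPM. Ptprc (865 ± 376 against 1230 ± 83.7 CPM) and Thy1 (3.92 ± 1.2 against 4.16 ± 1.34 CPM), whose alleles mark hosts and donors, were not called.

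Of 19 type 2 cytokine and effector genes, 0 were called in edgeR (all genes 0.13% higher and 0.325% lower), and the median log2 fold change was 0.20. At an unadjusted p under 0.05, 2 were higher and 3 lower, against 5.8% and 7.42% of all genes. Il5 was at 183, 148 and 152 CPM at 8 weeks and at 156, 141 and 140 CPM at 20 weeks (log2 fold change -0.14, SE 0.20), so the groups overlapped. Il13 was at 17, 11.5 and 14.4 CPM and then 10.1, 11.3 and 10.7 CPM, just without overlap (log2 fold change -0.42, SE 0.32, adjusted p = 0.619). In knockout-labelled cells Il13 was at 23.8 ± 11.9 against 8.26 ± 1.25 CPM, also without overlap and not called (log2 fold change -1.53, adjusted p = 0.215). Csf2, the gene for GM-CSF, was at 43.2 ± 14.9 against 29.8 ± 5.94 CPM (adjusted p = 0.57). Areg, which encodes the epidermal growth factor receptor ligand amphiregulin, was at 4.80, 3.36 and 5.52 CPM at 8 weeks and at 1.71, 0.89 and 1.23 CPM at 20 weeks. The groups did not overlap, and the difference missed the threshold (log2 fold change -1.83, SE 0.40, adjusted p = 0.0758). Tph1, the enzyme of serotonin synthesis, was at 6.65 ± 1.57 against 2.31 ± 0.688 CPM in WT (log2 fold change -1.52, adjusted p = 0.134) and was called lower in knockout-labelled cells (-3.21, adjusted p = 0.0144). In a bulk sample, fewer cells of a type and less RNA per cell cannot be told apart.

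Interferon-stimulated genes were lower on average at 20 weeks, with few calls. Of 36 tested, 2 were called lower and 0 higher, Oasl1 and Mx1, while 20 were lower and 0 higher at an unadjusted p under 0.05 (7.42% and 5.8% of all genes). For 19 the WT libraries did not overlap and were lower at 20 weeks, against 9.12% of all genes. The median log2 fold change was -0.86 in WT and -0.88 in knockout-labelled cells. Oasl1, an inhibitor of Irf7 translation, was at 19.2, 19.4 and 8.21 CPM at 8 weeks and at 3.33, 2.98 and 2.31 CPM at 20 weeks (log2 fold change -2.43, SE 0.47, adjusted p = 0.0447). Mx1, an antiviral GTPase that many inbred mouse strains carry as a defective gene, was at 20.9, 12.6 and 13.8 CPM and then 2.71, 4.84 and 4.25 CPM (log2 fold change -2.01, SE 0.39, adjusted p = 0.0448). Among members not called were Rtp4 (84.5 ± 42.9 against 20.4 ± 4.81 CPM), Ifi27l2a (102 ± 25.9 against 24.1 ± 7.89 CPM), Ifit1 (50.7 ± 23.8 against 11.3 ± 4.9 CPM) and the transcription factor gene Irf7 (178 ± 78.8 against 67.1 ± 1.25 CPM). The SDs at 8 weeks were large, up to nearly the mean for Ifi44 (13.5 ± 11.5 CPM). Irf1, a transcription factor gene of the list, had a log2 fold change of 0.47 (adjusted p = 0.467). DESeq2 called 13 members lower and limma-voom 0. Both edgeR calls were lost without any 1 of WT replicates 1, 2 and 3 of 20 weeks, WT replicates 1 and 2 of 8 weeks, knockout-labelled replicates 1, 2 and 3 of 20 weeks or knockout-labelled replicate 2 of 8 weeks. Omitting WT replicate 3 of 8 weeks gave 8 calls and omitting knockout-labelled replicate 3 of 8 weeks gave 6.

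**Figure D3:**
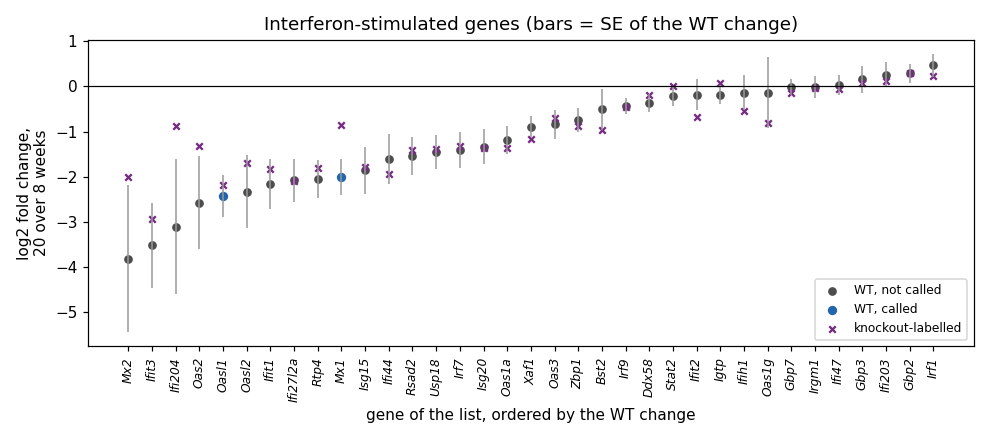
The x axis orders 35 of the 36 interferon-stimulated genes by their WT log2 fold change of 20 over 8 weeks, shown on the y axis as circles with SE bars, and crosses give the knockout-labelled change. Most members lie below 0 in both genotypes, and Oasl1 and Mx1 (blue) were called in WT.

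Markers of other cells moved with this list in part. Summed dendritic cell markers lay at 1380 to 2180 CPM in WT libraries of 8 weeks and 1010 to 1350 CPM at 20 weeks, most of it H2-Aa (1640 ± 396 against 1030 ± 188 CPM). H2-Aa and Bst2, which the list shares with the interferon-stimulated genes, were the 2 of 9 tested markers with a fitted value below 0, while 7 were above 0 and the median log2 fold change was 0.21. Clec9a was the 1 of 13 markers of that list at 0 in all 6. Of 12 MHC class II presentation genes 0 were called in edgeR, with a median log2 fold change of -0.43. At an unadjusted p under 0.05, 3 were lower and 0 higher, against 7.42% and 5.8% of all genes. Cd74, the invariant chain, was at 13100 ± 4960 against 6050 ± 1080 CPM (log2 fold change -1.12, adjusted p = 0.152). Summed NK cell markers were at 56.8 to 232 CPM at 8 weeks and 35.7 to 56.6 CPM at 20 weeks, with the highest value in WT replicate 3 of 8 weeks. Most of it was the granzyme gene Gzma (114 ± 97.8 against 42.6 ± 8.94 CPM). Klra7 was the 1 of 12 NK cell markers at 0 in all 6. The cytotoxic gene Gzmb was at 50.3 ± 33 against 9.05 ± 8.68 CPM (adjusted p = 0.175), and 0 of 14 cytotoxic granule genes were called. At an unadjusted p under 0.05, 1 of these 14 was higher and 3 were lower, against 5.8% and 7.42% of all genes. The part of these cells in the results was not tested.

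Among lists of growth and metabolism, several had a median log2 fold change slightly below that of all genes (0.03), without calls. They included nuclear respiratory chain (-0.21), antioxidant enzymes (-0.19), cell cycle (-0.17), arginine and polyamine metabolism (-0.17) and sterol synthesis (-0.04). Of 42 cell cycle genes 0 were called, with 8 lower and 0 higher at an unadjusted p under 0.05 (all genes 7.42% and 5.8%). The 4 with the smallest p belong to DNA replication: the clamp gene Pcna (376 ± 51.1 against 226 ± 26.3 CPM, log2 fold change -0.74) and the helicase subunit genes Mcm5 (522 ± 98.3 against 312 ± 35 CPM, -0.74), Mcm7 (389 ± 40.7 against 264 ± 30.2 CPM, -0.56) and Mcm3 (493 ± 51.9 against 327 ± 38.4 CPM, -0.59). Their adjusted p lay between 0.111 and 0.198. Of 29 nuclear respiratory chain genes 0 were called, with 8 lower and 0 higher at an unadjusted p under 0.05 (all genes 7.42% and 5.8%). Among the 8 were Atp5o (464 ± 46.4 against 289 ± 30.2 CPM, adjusted p = 0.107) and Sdhb (541 ± 115 against 323 ± 1.39 CPM, adjusted p = 0.119). Glycolysis (19 genes), sterol synthesis (20), fatty acid use (24), antioxidant enzymes (22), migration and homing receptors (19), cytokine receptors and their brakes (28) and costimulatory and checkpoint receptors (21) had 0 calls and medians between -0.19 and 0.10.

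The second pattern set the WT cells of 8 weeks apart from all other libraries. The time by genotype interaction, which tests whether the change differed between WT and knockout-labelled cells, was called for 8 autosomal genes (0.0578%), and all 8 were among the 63. Of these, 6 (0.0434% of genes tested) were high in WT cells of 8 weeks (Fmo1, Adamts13, Capn11, Cdk5rap1, Hectd4 and the pseudogene Gm9864) and 2 (0.0145%) were low there (Nefh and Pes1).

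Fmo1 (ENSMUSG00000040181, chromosome 1, 162829561 to 162866610), a flavin monooxygenase of drug metabolism, was at 218, 148 and 210 CPM in WT cells at 8 weeks and at 38.3, 29.3 and 38.7 CPM at 20 weeks. The knockout-labelled libraries of both times lay between 34.0 and 51.4 CPM, next to the WT libraries of 20 weeks. The log2 fold change in WT was -2.44 (SE 0.19, adjusted p = 6.18e-05) and the interaction -2.87 (SE 0.27, adjusted p = 0.000462). Adamts13 (chromosome 2, 26973416 to 27009628), which encodes the protease that trims von Willebrand factor, was at 12.5, 19.1 and 16.2 CPM at 8 weeks and at 1.42, 1.24 and 1.51 CPM at 20 weeks, against 1.52 to 2.28 CPM in knockout-labelled libraries (interaction -3.47, adjusted p = 0.00306). Capn11 (chromosome 17, 45630204 to 45659325), a calpain protease known from testis, was at 41.4, 37.5 and 34.4 CPM at 8 weeks and at 0.42, 0.425 and 0 CPM at 20 weeks, a 134-fold difference of means. Its knockout-labelled libraries lay between both, at 2.69 to 6.30 CPM (interaction -6.92, SE 0.74, adjusted p = 0.00128).

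Cdk5rap1 (chromosome 2, 154335380 to 154373010), which modifies mitochondrial transfer RNA, was at 99.0, 86.3 and 92.8 CPM at 8 weeks and at 22.6, 14.3 and 19.1 CPM at 20 weeks, with 9.54 to 25.2 CPM in knockout-labelled libraries (interaction -2.63, adjusted p = 0.0447). The coding transcript Cdk5rap1-201 held 84.0% and 87.4% of its WT reads at the 2 times, and the retained-intron transcript Cdk5rap1-207 held 14% and 4.18%. Hectd4 (chromosome 5, 121220219 to 121368577), a large ubiquitin ligase gene, was at 13.2, 19.3 and 17.6 CPM at 8 weeks and at 1.61, 0.735 and 0.433 CPM at 20 weeks. Its knockout-labelled libraries ranged from 1.63 to 13 CPM and were higher at 20 weeks on average (5.11 ± 3.04 against 10.5 ± 3.65 CPM, interaction -5.12, adjusted p = 0.0303). The full-length transcript Hectd4-201 had 286, 175 and 283 reads at 8 weeks and 38.5, 0 and 0 at 20 weeks in WT.

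Of the 13 called genes that were low in the WT libraries of 8 weeks alone, 4 lay together on chromosome 11. Nefh (ENSMUSG00000020396, chromosome 11, 4938754 to 4948064), the heavy neurofilament chain, had 0 reads in all 3 WT libraries of 8 weeks and was at 14.9, 9.86 and 8.58 CPM at 20 weeks. Against the floor of 3 reads per library at 8 weeks (0.204 CPM), it was at least 54.6-fold higher at 20 weeks, and the 6 knockout-labelled libraries held 10.8 to 20.0 CPM. Pes1 (chromosome 11, 3963975 to 3980004), a ribosome biogenesis factor, was at 30.3, 46.7 and 40.7 CPM at 8 weeks and at 133, 158 and 142 CPM at 20 weeks (log2 fold change 1.88, SE 0.22, adjusted p = 0.00123), with 122 to 186 CPM in knockout-labelled libraries (interaction 2.03, adjusted p = 0.0273). It was the one called gene of 25 of ribosome biogenesis (all genes 0.13% higher), whose median log2 fold change was 0.07. Of those 25, 3 were higher and 1 lower at an unadjusted edgeR p under 0.05, against 5.8% and 7.42% of all genes. Gal3st1 (3983636 to 3999326), a sulfotransferase of myelin lipids, had 0 reads in the 3 WT libraries of 8 weeks and was at 3.55, 1.55 and 1.73 CPM at 20 weeks, at least 11.2-fold higher. 4930556J24Rik, at 0.742, 0.692 and 1.53 CPM and then 3.23, 5.30 and 4.69 CPM, overlaps Pes1 on the opposite strand, so its reads cannot be told from those of Pes1.

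**Figure D4:**
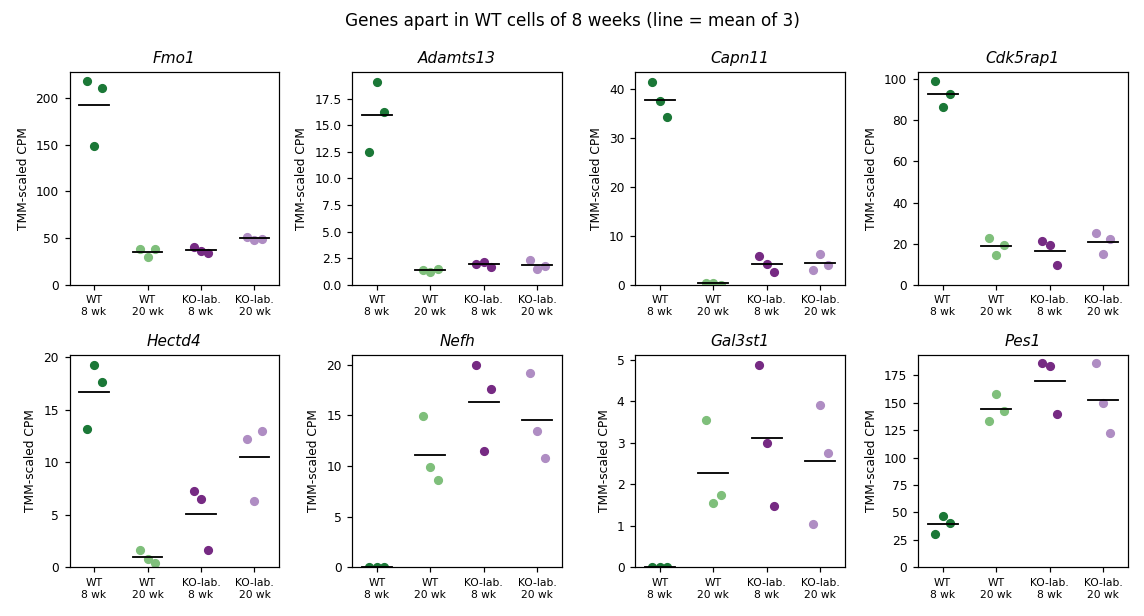
The y axis of each panel is TMM-scaled CPM on a linear scale from 0, points are libraries and lines are means of 3, for WT and knockout-labelled (KO-lab.) cells at each time. In each panel the 3 WT libraries of 8 weeks lie apart from the other 9 libraries, as with Fmo1 at 148 to 218 CPM against 29.3 to 51.4 CPM.

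Of the 63 called genes, 10 (15.9%) had another called gene within 1 Mb of their start, against 8.22% of all genes tested with a called gene that near. Besides the 4 on chromosome 11 these were 3 pairs. Entpd4 and Entpd4b on chromosome 14 are near-identical copies with the same 20-week values (6.88, 8.55 and 7.43 CPM), so they are 1 uncertain result. On chromosome 7, 5830411N06Rik (14.7, 7.61 and 7.66 against 0.646, 0.542 and 0.793 CPM) and Cd163l1 (28.2, 18.1 and 38.5 against 1.00, 3.98 and 4.83 CPM) encode related scavenger receptors known from γδ T cells, and both were lower at 20 weeks. Pycard and Dctpp1 made the third pair. Around Fmo1, Adamts13, Capn11, Cdk5rap1 and Hectd4, 0 of 9, 30, 28, 23 and 34 tested genes within 1 Mb were called, while within 1 Mb of Pes1 3 of 43 were.

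Other called genes had the same 8-week WT pattern with an interaction that did not pass. Ets1 (ENSMUSG00000032035, chromosome 9, 32636221 to 32757820), a transcription factor of lymphocyte development, was at 178, 181 and 185 CPM at 8 weeks and at 944, 1140 and 945 CPM at 20 weeks (log2 fold change 2.47, SE 0.45, adjusted p = 0.0344). The 8-week values were almost equal, and the knockout-labelled libraries lay above all WT libraries, at 1210 to 5850 CPM (interaction 3.18, SE 0.62, adjusted p = 0.144). Ets1 was called in 15 of 26 alternative fits, and the call was lost without WT replicate 1, 2 or 3 of 20 weeks, WT replicate 1 or 2 of 8 weeks or any 1 knockout-labelled library of 20 weeks. Nearly all of the reads came from the full-length transcript Ets1-201 at both times (99.6% and 99.9%). Cpne8, a copine of membrane traffic, was at 78.9, 156 and 96.2 CPM and then 13.1, 14.1 and 23.6 CPM (log2 fold change -2.71, adjusted p = 0.00123), against 16.8 to 29.4 CPM in knockout-labelled libraries (interaction -2.33, adjusted p = 0.112). Coro2b, an actin-binding coronin, was at 1.44, 0.494 and 0.919 CPM and then 3.97, 7.35 and 5.84 CPM (adjusted p = 0.0216), against 6.51 to 15.7 CPM. Me3, a mitochondrial malic enzyme, was at 16.3, 15.9 and 23.4 CPM and then 44.2, 36.2 and 44.1 CPM (adjusted p = 0.0327), against 48.6 to 101 CPM.

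P2rx7, the ATP-gated channel that primes lymphocytes for cell death, was at 2.10, 4.45 and 1.65 CPM at 8 weeks and at 9.85, 10.3 and 15 CPM at 20 weeks (log2 fold change 2.13, SE 0.41, adjusted p = 0.0443), called in 8 of 26 alternative fits. Its knockout-labelled libraries lay at 5.2 to 15.2 CPM. They too were higher at 20 weeks on average (6.72 ± 2.58 against 12.1 ± 2.81 CPM, log2 fold change 0.86, edgeR adjusted p = 0.585). P2rx7 was the one called gene of 20 receptors for neuropeptides and lipid mediators (all genes 0.13% higher), whose median log2 fold change was 0.19. Of those 20, 4 were higher and 1 lower at an unadjusted edgeR p under 0.05, against 5.8% and 7.42% of all genes. Calcrl, part of the receptor for the neuropeptide CGRP, was at 20.6 ± 18.4 against 66.4 ± 1.56 CPM and did not pass (log2 fold change 1.68, adjusted p = 0.203). Nfib, a nuclear factor I gene, had 0.854, 0 and 1.97 estimated reads in the WT libraries of 8 weeks and 51.6, 48.3 and 14 at 20 weeks (adjusted p = 0.0327), called in 11 of 26 alternative fits. Its WT libraries of 20 weeks (1.68, 1.86 and 1.01 CPM) were also apart, above all knockout-labelled libraries (0.251 to 0.723 CPM). Tcrg-C1, a constant segment of the T cell receptor gamma locus, was at 223, 445 and 183 CPM and then 63.1, 90.2 and 84.4 CPM (log2 fold change -1.84, adjusted p = 0.0234), against 74.4 to 127 CPM in knockout-labelled libraries. It was among the 5 called genes with the most deposited TPM (654 ± 292 against 213 ± 41.6 TPM), as were the processed pseudogene Gm15387 and Gm10131, which is annotated as protein coding. Reads of Gm15387 cannot be told from those of its parent gene, and those of Gm10131 may be shared with similar genes.

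High values in WT replicates 1 and 3 of 8 weeks marked 3 further genes, picked after their values were seen. Sgip1, an endocytosis gene, was at 750, 370 and 1060 CPM at 8 weeks and at 143, 134 and 204 CPM at 20 weeks, against 154 to 210 CPM in knockout-labelled libraries. Noct, a clock-controlled phosphatase known as nocturnin, was at 919, 611 and 1120 CPM and then 328, 290 and 347 CPM, and Slc38a6, an amino acid transporter gene, at 480, 302 and 591 CPM and then 175, 147 and 175 CPM. All 3 were lowest in WT replicate 2 among the 8-week libraries and still above every 20-week library. Prr5l, a regulator of mTORC2 also picked after its values were seen, was highest in that replicate, at 159, 429 and 133 CPM and then 36.8, 51.3 and 45.9 CPM. The kinase gene Ptk2b was at 221, 263 and 202 CPM at 8 weeks and at 115, 95.0 and 71.6 CPM at 20 weeks.

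The values of WT and knockout-labelled cells were then set side by side for the called genes. Over time 9 autosomal genes (0.0651%) were called in knockout-labelled cells, all lower at 20 weeks. Of these, 8 were among the 63 WT genes: Fos, Nr4a1, Nr4a2, Dusp1, Tnfaip3, Cdkn1a, Cd69 and Rasd1. The ninth was Tph1. These calls rested on single libraries: 0 were left without knockout-labelled replicate 1 or 2 of 20 weeks or replicate 2 of 8 weeks, 1 without replicate 3 of 20 weeks, and 26 were made without replicate 3 of 8 weeks. All 3 knockout-labelled libraries of 20 weeks were quantified with 24 threads and 2 of the 3 of 8 weeks with 8, and 0 of the 9 calls were left with thread number as a covariate. Of the 45 genes lower in WT, 35 had a lower fitted value in knockout-labelled cells too (all genes 50.6%), and for 28 of those the knockout-labelled libraries did not overlap (all genes 8.14%). Of the 18 higher in WT, 12 were higher there too (all genes 49.4%), 7 without overlap (all genes 8.24%). The interaction was near 0 for Egr1 (0.03, SE 0.55), Rasd1 (0.11, SE 0.51) and Dusp1 (-0.13, SE 0.31), and none of these passed. The 2 genotypes came from the same kind of mixed chimera and share the estimate of spread.

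**Figure D5:**
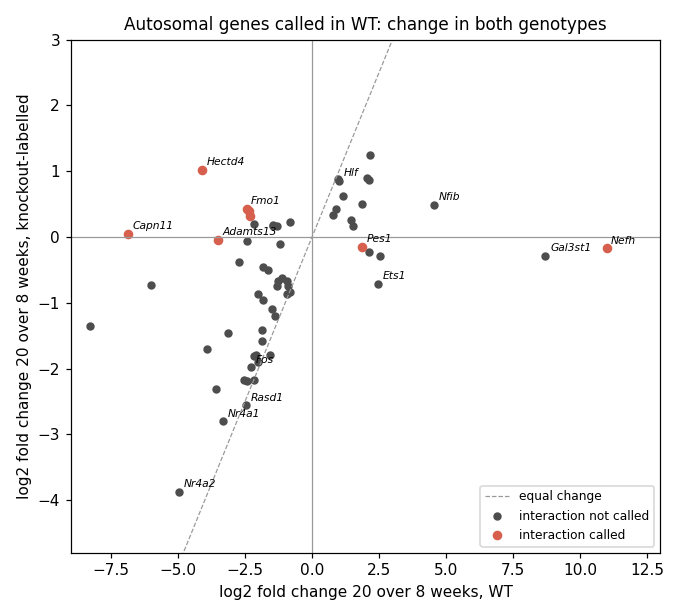
Each point is 1 of the 63 autosomal genes called in WT, with the WT log2 fold change of 20 over 8 weeks on the x axis and the knockout-labelled one on the y axis. Early response genes such as Nr4a2 and Fos lie near the dashed line of equal change, while 7 of the 8 genes with a called interaction (red) lie between -0.17 and 0.43 in knockout-labelled cells and Hectd4 lies at 1.02.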

How the data were processed

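RNA of sorted ILC2s was sequenced in 12 libraries, 3 for each of 4 groups. Per the file headers, the authors quantified transcripts with sailfish 0.6.3, using 20-base k-mers and Ensembl release 76. The deposited values used are estimated counts of reads and TPM per transcript. Per the submitters' processing notes, featureCounts 1.4.5 of Subread, STAR 2.0.4b and bcl2fastq were also used, for steps the notes do not name. The labels name polyA RNA as well as depletion of ribosomal RNA, and the strand of the counting is not given in the sources used here.

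Estimated counts were summed to genes by GENCODE M21 (GRCm38) and rounded. In the WT libraries 1.32 to 1.54% of reads belonged to unmatched transcripts and were left out. All 12 libraries were fitted in edgeR 4.0.16 (R 4.3.3; quasi-likelihood, TMM factors, filterByExpr) with 4 groups and no covariate. P-values were adjusted by Benjamini-Hochberg over 14431 genes, of which 13831 autosomal ones are reported. CPM values are TMM-scaled, and errors are SD over 3 libraries or SE. The SE is no direct output of the fit. It was computed as the size of the log2 fold change divided by the square root of the quasi-likelihood F. The floor is 3 reads per library. Alternatives used DESeq2 1.42.0, limma 3.58.1 (voom), other scalings and filters, and fits without single libraries. On simulated counts of this comparison (14431 genes), 10% of 100 genes changed by 1 on the log2 scale were recovered and 61% of 100 changed by 2, with 4 false calls.

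The members and gene lists were chosen with earlier results of these data known. Named genes are 15 set genes, 15 genes in each direction, called list members with up to 3 further members, called genes within 1 Mb of another, and the 5 called genes with the most TPM. The 15 in each direction were the called protein-coding genes with the smallest p that passed 3 filters. These were a log2 fold change of at least 1 in size, a mean of at least 1 CPM in the higher group and no overlap between WT libraries. Further list members were picked after their values were seen. Some genes are not reported here, and 1 of them is left out of the plot of interferon-stimulated genes.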

Additional observations from a re-analysis of the deposited data

Results flagged for a closer look

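For 8 genes the difference between 20 and 8 weeks itself differed between WT and knockout-labelled cells, by the interaction term of the edgeR fit. The interaction, as WT minus knockout-labelled log2 fold change, was -2.87 for Fmo1, -3.47 for Adamts13, -6.92 for Capn11, -2.63 for Cdk5rap1, -5.12 for Hectd4 and -2.75 for the pseudogene Gm9864. It was 11.16 for Nefh and 2.03 for Pes1. The value for Nefh depends on the prior count of the fit, because its WT libraries of 8 weeks had 0 reads.

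Y-linked genes, outside the autosomal comparison, gave a signal in the WT libraries of 20 weeks above that of 8 weeks. The mean at 20 weeks was 109 CPM for Ddx3y, 140 CPM for Eif2s3y, 49.9 CPM for Uty and 51.5 CPM for Kdm5d. Ddx3y was at 0.699, 1.58 and 0.797 CPM at 8 weeks in WT cells and at 0.395 to 1.91 CPM in the 6 knockout-labelled libraries. Donor sex and time cannot be told apart in WT cells.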

How the results depend on the processing

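The count of 63 called genes was 468 in DESeq2, 144 without WT replicate 2 and knockout-labelled replicate 3 of 8 weeks together, 27 in the 6 WT libraries alone and 0 in the 8-thread libraries, and ranged from 20 to 278 when single libraries were left out. The interaction count of 8 was 26 in DESeq2, 5 with thread number as a covariate, 19 without those 2 libraries together, and 5 to 11 without single libraries. The count of 9 in knockout-labelled cells was 144 in DESeq2, 0 with the thread covariate, 58 without those 2 libraries together, and 0 to 26 without single libraries. With the replicate number as a block, time in WT gave 38 calls, the 6 WT libraries alone 20, the interaction 5 and time in knockout-labelled cells 5. Deviations of same-numbered WT libraries of the 2 times correlated at 0.165, 0.067 and 0.207, and those of WT and knockout-labelled libraries at 0.312, 0.209 and 0.077 at 8 weeks and 0.068, 0.131 and 0.156 at 20 weeks. Different-numbered WT libraries of the 2 times lay at -0.224 to 0.084. Those of WT and knockout-labelled libraries lay at -0.253 to 0.08 at 8 weeks and -0.191 to 0.076 at 20 weeks. Same-numbered knockout-labelled libraries of the 2 times lay at -0.202, -0.1 and -0.216. Not every same-numbered pair passed 0.1, and the labels do not say whether a number marks a shared host. The main fit therefore did not use the numbers as pairs, and a shared host or batch per number was not tested. Of the 63 genes, 30 were called in at least 20 of 26 alternatives, and 0 changed sign in any of them. Where a call was lost, the cause was not tested. With 3 libraries per group, most changes of 1 on the log2 scale would be missed at this depth and spread.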

Other observations

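Of 15 B cell and plasma cell genes tested, 0 were called in edgeR, and the summed markers of the 2 times overlapped. At an unadjusted p under 0.05, 3 were higher and 1 was lower at 20 weeks, against 5.8% and 7.42% of all genes. The median log2 fold change of the list was 0.7 in WT and -2.24 in knockout-labelled cells. Jchain, the joining chain of secreted antibody, was at 0.115 CPM at 8 weeks and 10.4 CPM at 20 weeks on average in WT (log2 fold change 6.58, adjusted p = 0.0575). In knockout-labelled cells Jchain went the other way, at 5.92 ± 6.81 against 1.05 ± 0.655 CPM, with overlap (log2 fold change -2.51, edgeR adjusted p = 0.533). In WT, Igkc, the kappa light chain constant region, was at 9.88 and 42.7 CPM (adjusted p = 0.352), and Cd79b, part of the B cell receptor, at 150 and 75.6 CPM (adjusted p = 0.0758).

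Ei24, a p53 target gene picked after its values were seen, was at 12.1, 20.7 and 14.6 CPM at 8 weeks and at 113, 306 and 926 CPM at 20 weeks (log2 fold change 4.83, SE 1.06, adjusted p = 0.0785). The retained-intron transcript Ei24-204, of 472 bases, had 0, 0 and 117 reads at 8 weeks and 3210, 7620 and 12700 at 20 weeks. It held 16.2% and 96.9% of the gene's reads at the 2 times. The coding transcript Ei24-201 averaged 199 and 236 reads. In knockout-labelled replicate 2 of 20 weeks Ei24-204 had 6680 reads.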
